A study of Homo sapiens with 6 samples.

Results

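The comparison covered the first 10 min after actinomycin D in cells of the GM00156 line, a human line from the Coriell repository. For each probe of a two-colour array the log2 ratio at 0 min was set against the log2 ratio at 10 min. A probe entered if it did not carry the most repeated value of either array, which was taken as not measured. That left 13566 of 14080 probes, of which 11123 have a single gene symbol, and these name 8876 genes. The labels do not state the tissue or cell type of the line, and a ratio gives no level, so cell type markers could not be checked.

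Cells were kept with or without emetine at 100 µg/ml for 10 h, and both cultures then received actinomycin D at 5 µg/ml. The 0 min harvest followed its addition at once, per the labels, and later harvests came at 10 min, 30 min, 1 h and 8 h, with 1 array each. On every harvest array the emetine-treated mRNA carried Cy3 and the untreated mRNA carried Cy5. A self-self array set RNA of the emetine-treated culture at 0 min against itself, and its label mentions no actinomycin D. The labels do not say which channel is the numerator, so a value is called positive or negative here and no side is called higher in treated cells. The labels of the 0 min array conflict, since its description has treated RNA in both channels and its sources are 1 treated and 1 untreated culture. With 1 array per time there is no replicate, no SD and no test, and every difference below is between a pair of arrays and not between conditions measured repeatedly. These are bulk samples of 1 line, in which fewer cells with an mRNA and less of it per cell cannot be told apart.

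Emetine blocks the elongation step of translation, and mRNAs whose decay needs ongoing translation, among them targets of nonsense-mediated decay and many short-lived transcripts, are known to accumulate under such a block. Actinomycin D binds DNA and stops RNA polymerases, so that changes in an mRNA afterwards reflect mainly its decay. Messages of immediate-early transcription factors and cytokines are known for short half-lives, and those of tubulin for a decay that is coupled to the translation of the nascent tubulin chain.

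Across the series the 0 min array was narrower than most others. The robust SD of the log2 ratios, a spread that extreme probes hardly affect, was 0.12, 0.44, 0.91, 0.78, 0.53 and 0.87 over the 6 arrays, which are always listed with the self-self array first and the 5 harvests after it by time. The medians of the 6 arrays lay between 0.01 and 0.15. Among the 13091 probes measured on every array, 99% of self-self values lay between -0.32 and 0.47, with equal tails left out, which is called the self-self range below. The 1 h array was compressed on the positive side, where its highest value was 2.99, against 6.74 at 10 min.

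The ratios widened within 10 min, and mostly on the side where they already stood at 0 min. Of 2318 probes at 0.5 or more at 0 min, 97.5% were also positive at 10 min and 79.1% were farther from 0, the median moving from 0.83 to 1.21. Of 1511 probes at -0.5 or less, 98.3% were also negative and 91.7% were farther from 0, with medians of -0.66 and -1.35. The negative side thus about doubled on the log2 scale, while the positive side widened less. The robust SD over the probes measured on both arrays was 2.08 times as large at 10 min.

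A least squares line of the 10 min value on the 0 min value described this widening with a slope of 1.45 and an intercept of -0.09, and Pearson's r across probes was 0.88. That correlation is across probes that share both slides, and probes are not independent replicates. The distance of a probe from this line is called its residual, in log2 units. Lines fitted separately had a slope of 1.79 below a 0 min value of 0 and 1.18 at or above it, so the relation bends. Probes between 2 and 3 at 0 min had a median of 2.90 at 10 min and a median residual of -0.51. For the 17 probes above 4 at 0 min the corresponding values were 4.92 and -1.36. On the negative side the median residual was -0.31 for probes between -1 and -0.5 at 0 min and -0.21 for those between -0.5 and -0.25. A residual from a smooth lowess curve, which follows these bends, is therefore given beside that from the line. The robust SD of the residuals was 0.43.

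Probes that left the line by at least 1 were taken as having moved apart from the general widening. By this rule 181 probes lay above the line (1.33% of those measured) and 297 lay below it (2.19%). Of these, 119 and 193 were also at least 1 from the lowess curve on the same side. The others passed the threshold from the straight line only. At the threshold the innermost single-gene probe above was that of TFPT at 1.0006 and the nearest one not counted was that of CD37 at 0.997, and below they were those of SAT1 at -1.0008 and MXRA5 at -0.9999. With the line left aside, the plain difference between the arrays was at least 1 for 222 probes (1.64%) and at most -1 for 518 probes (3.82%). With the 0 min array scaled to the spread of the 10 min array these counts were 178 and 854. Averaged per gene, 86 genes lay above the line (0.969% of 8876) and 137 lay below (1.54%). Probes without a gene symbol were counted too, and 46 of 2003 lay above (2.3%) and 59 lay below (2.95%), against 128 (1.15%) and 234 (2.1%) of the single-gene probes.

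The probes on either side differed in where they had stood before. Of the 181 above the line, 117 were inside the self-self range at 0 min, against 8238 of 13566 over all probes. The upper set was thus near the overall share. The medians of all 181 from 0 min to 8 h were -0.05, 0.98, 0.51, 0.27 and 0.26. These medians were thus highest on the array that chose the probes. The 297 below the line had medians of 0.32, -1.12, -0.91, -0.83 and -1.02 at the same times, so that the median stayed negative to the last harvest. At 8 h, 93 of 175 measured probes of the upper set were inside the self-self range, and 25 of 287 of the lower set. Over all probes it was 4902 of 13383. Of the 297 below the line, 75 had been inside that range at 0 min, so most of them did not start there. The later medians come from arrays that did not choose the probes. The narrow positive side of the 1 h array bears on its values, and its part in them was not tested.

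The 297 probes below the line were of 3 kinds. A set of 55 had stood at 2 or more at 0 min, and all remained positive, with medians of 3.06 at 0 min and 2.96 at 10 min, and they lie where the relation bends away from the straight line. A set of 123 was already negative at 0 min, with a median of -0.55, and stood at -2.26 at 10 min. The other 119 lay between 0 and 2 at 0 min, with a median of 0.62, and 90 of them were negative at 10 min, when the median was -0.56.

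Single-gene probes were also sorted by what they did relative to the self-self range. There were 245 probes of 240 genes that were inside that range at 0 min and reached at least 1 at 10 min, and 180 probes of 157 genes that reached -1 or less. A further 39 probes of 25 genes were outside the range on opposite sides at the 2 harvests, and 30 of these were positive at 0 min. Of 851 probes at 1 or more in size at 0 min, 102 were nearer to 0 at 10 min on the same side. Of the first 2 kinds, 196 and 131 probes were within 1 of the line, and so are not among those counted off it.

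TUBA1A, an alpha-tubulin, gave the largest negative residual of the named genes. It is represented by 9 probes of 1 accession. Its outermost probe read 0.20, 0.24, -2.88, -2.37, -2.77 and -3.39 over the 6 arrays, a residual of -3.14. Of the 9 probes, 7 were below the line and differed between 0 and 10 min by -3.12 to -2.81, whatever their 0 min value. The other 2 differed by -0.95 and -1.04. Probes of 1 accession thus gave nearly the same drop in 7 of 9 cases. For TUBA3C the outermost of 2 probes went from -1.23 to -3.97, and its residual was -2.10. TUBA4A moved from -1.24 to -3.85 on its 1 probe, with a residual of -1.97. Both alpha-tubulins stayed below -2 at all later harvests.

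The list of tubulins held 12 measured genes, of which 3 were below the line, none above it, and 11 had a negative residual. Over all 8876 genes, 1.54% were below the line and 4342 had a negative residual. For the list of tubulins the medians were as follows. Its median residual was -0.38, against 0.01 over all genes, and -0.23 from the curve. The other 9 tubulins had residuals from -0.94 to 0.80. TUBG1, the gamma-tubulin of microtubule nucleation, read -0.82 and -2.23. TUBB, a beta-tubulin, averaged 0.03 and -0.42, but its 12 probes disagree, with differences from -1.84 to 1.26 and 2 of them below the line. TUBA1B, an alpha-tubulin, was 0.16 at 0 min and 0.10 at 10 min, and TUBB2B was the one measured tubulin with a positive residual, 0.80. The tubulin genes are close relatives, and a cDNA probe of one can bind mRNA of another, so the values of the alpha-tubulins are not independent of each other.

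The promoters of the 3 tubulins below the line are shown. In each, the 250 bases before the start site in RefSeq (GRCh38.p14) are printed 5′ to 3′ on the gene's strand, and capitals mark CCAAT or its complement ATTGG. The motif was found in 8 of 12 tubulin promoters (66.7%), in 34.9% of those of all measured genes with a promoter in the table and in 32.0% of all promoters in it. The match is a description of the letters and says nothing of binding.
TUBA1A, chr12:49189081-49189330, minus strand: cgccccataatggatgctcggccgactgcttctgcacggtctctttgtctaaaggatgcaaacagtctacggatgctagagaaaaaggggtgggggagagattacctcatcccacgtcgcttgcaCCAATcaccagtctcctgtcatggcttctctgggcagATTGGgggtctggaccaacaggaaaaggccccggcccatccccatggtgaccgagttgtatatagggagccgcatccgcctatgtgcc
TUBA3C, chr13:19181825-19182074, minus strand: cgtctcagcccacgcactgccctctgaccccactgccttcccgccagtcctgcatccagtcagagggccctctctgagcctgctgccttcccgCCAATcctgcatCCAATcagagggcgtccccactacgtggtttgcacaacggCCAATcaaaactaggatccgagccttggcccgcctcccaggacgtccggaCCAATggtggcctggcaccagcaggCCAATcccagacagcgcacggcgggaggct
TUBA4A, chr2:219253919-219254168, minus strand: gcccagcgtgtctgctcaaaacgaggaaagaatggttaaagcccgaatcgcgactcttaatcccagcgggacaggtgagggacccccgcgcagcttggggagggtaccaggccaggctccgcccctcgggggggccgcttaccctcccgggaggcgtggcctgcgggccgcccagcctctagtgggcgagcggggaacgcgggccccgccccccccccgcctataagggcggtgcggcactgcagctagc

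TUBA3C holds 5 such matches, TUBA1A holds 2 and TUBA4A holds 0 in this window. Among genes below the line, 42.2% of the 102 with a promoter held CCAAT or its complement, and among genes above the line 35.6% of 73 did.

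Repeated probes also give the spread between probes of 1 gene, whose sequences were not at hand. Over 71 genes with 7 to 12 measured probes each, the SD of the 10 min minus 0 min difference within a gene had a median of 0.18, with a range of 0.03 to 0.89, and was under 0.5 in 66 genes. Over the 1587 genes with more than 1 probe, the within-gene SD of the difference was 0.37, against 0.55 over all probes, and 1 gene had probes on both sides of the line. This is spread between spots of the same pair of slides and not between cultures.

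LDHA, the A chain of lactate dehydrogenase, was below the line in 9 of 9 probes, with residuals from -2.02 to -1.27. Its probes had medians of 0.40 on the self-self array, 0.34 at 0 min and -1.25 at 10 min. ACTB, beta-actin, had medians of 0.34, 0.59 and -0.46 on the same arrays, and 6 of its 9 probes were below the line. HSP90AB1, a cytosolic chaperone, went from -0.04 to -1.15, with 4 of 9 probes below. GAPDH, a glycolytic enzyme often used as a reference, had medians of 0.48, 0.80 and -0.01, with 4 of 8 probes below. No probe of these genes was higher at 10 min, and the differences ran from -1.78 to -1.43 for LDHA, from -1.19 to -0.86 for ACTB, from -1.58 to -0.64 for HSP90AB1 and from -0.94 to -0.70 for GAPDH. LDHA, ACTB and GAPDH were already off 0 on the self-self array, where RNA was set against itself. The 9 probes of TUBA1A had a median of 0.16 there, with a range of -0.25 to 0.40. The part of these self-self values in the later values of these genes was not tested. The 673 probes of the 75 accessions with at least 7 probes had a median residual of -0.29, and 8.02% of them were below the line, against 0.01 and 1.88% for the other probes.

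Genes of extracellular matrix and fibroblast identity had the lowest median residual of the 30 lists from the least squares line. From a total least squares line the histones (-1.17) and the NF-kB list (-0.73) were lower than the matrix genes (-0.69). Of 40 measured genes, 12 were below the line, none was above it, and 36 had a negative residual. Over all 8876 genes, 137 (1.54%) were below the line and 4342 had a negative residual. The list was chosen with earlier results of these data known. The median residual was -0.78, against 0.01 over all genes, and -0.69 from the curve, with 9 genes below it. COL1A1, a chain of type I collagen, read 0.28, 0.01, -1.57, -1.62, -2.19 and -3.02 over the 6 arrays. COL3A1, the chain of type III collagen, went from 0.68 at 0 min to -0.62 at 10 min, but stood at 0.42 on the self-self array. All 7 collagen chains of the list had a negative residual, from -1.52 to -0.46.

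The other matrix genes below the line differed in where they stood at 0 min. COMP, a cartilage matrix protein, was at -1.13 and then at -3.46. SFRP1, a secreted WNT antagonist, was at -1.09 and -3.15, and TIMP3, an inhibitor of metalloproteinases, at -1.51 and -3.65. By contrast POSTN, periostin, changed side from 0.34 to -1.02. MMP14, a membrane-bound metalloproteinase, changed from 0.05 to -1.31, and THBS2, a thrombospondin, from 0.05 to -1.25. The list was completed by MMP3, SPARC, COL5A2 and VCAN, with 10 min values from -2.60 to -1.39. Each of the 12 genes was negative at all 3 later harvests as well.

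Lists of markers of other cell types had no negative median residual from the line. B lymphocyte markers had a median residual of 0.30 over 11 genes, with CD22 alone below the line. T and NK cell markers had 0.43 over 12 genes, none off the line. Epithelial markers had 0.05 over 12 genes, with KRT18, a keratin, below the line (-0.92 from the curve) and CLDN3, a claudin, above. Endothelial markers had 0.00 over 10 genes, none off the line. From the curve the medians of these lists, in the same order, were 0.15, 0.26, 0.01 and -0.15. Among the endothelial markers ENG was below the curve, at -1.03. A ratio carries no level, so these medians do not tell whether such cells were in the culture.

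Genes of the ATF4 program, which cells switch on when amino acids are short or the endoplasmic reticulum is stressed, had a negative residual in 24 of 31 measured genes. Of the 31 genes 6 were below the line and none above, with a median residual of -0.60. From the curve the median was -0.53, with 5 genes below and 1 above. Over all 8876 genes, 1.54% were below the line and 4342 had a negative residual. ASNS, asparagine synthetase, read -0.15, -0.15, -2.09, -1.15, -1.33 and -1.04 over the 6 arrays, a residual of -1.78. PCK2, the mitochondrial phosphoenolpyruvate carboxykinase, which is not on the list, went from -0.04 to -1.80 and back to -0.93 at 30 min. SLC7A5, an amino acid transporter, averaged -0.30 and then -2.02 over 2 probes. STC2, a secreted glycoprotein, and WARS1, the tryptophanyl-tRNA synthetase, went from 0.27 to -0.89 and from -0.17 to -1.45. Of 9 aminoacyl-tRNA synthetases in the list, 8 had a negative residual, from -1.12 for WARS1 upward, with 0.04 for the other one. That subset was picked after its values were seen.

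Transcription factors of the same program were positive at 0 min. ATF3 stood at 4.88 at 0 min and 5.16 at 10 min, and DDIT3 at 3.22 and 3.33. They count as below the line with residuals of -1.83 and -1.25, but lay at -0.42 and -0.50 from the curve. ATF4 itself averaged 1.17 and 1.01, with a residual of -0.60. GADD45B, a stress-induced growth regulator, moved in the same direction as ATF3 and DDIT3 but farther, from 2.88 to 4.81. Its residual was positive, 0.72.

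Of the 4 genes of the list that hold the amino acid response element searched for, the promoters of ASNS and AARS1, the alanyl-tRNA synthetase, are shown. The element is TGATGNAA or its complement TTNCATCA. The promoters of ATF3 and GADD45G hold it too and are not printed. In the 250 bases before the start site, in RefSeq (GRCh38.p14), printed 5′ to 3′ on the gene's strand, capitals mark the match.
ASNS, chr7:97872409-97872658, minus strand: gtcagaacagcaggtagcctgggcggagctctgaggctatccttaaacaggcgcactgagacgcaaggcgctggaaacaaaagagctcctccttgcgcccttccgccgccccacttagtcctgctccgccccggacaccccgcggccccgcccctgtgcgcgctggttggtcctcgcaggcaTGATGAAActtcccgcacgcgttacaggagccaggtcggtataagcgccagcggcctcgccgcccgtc
AARS1, chr16:70289507-70289756, minus strand: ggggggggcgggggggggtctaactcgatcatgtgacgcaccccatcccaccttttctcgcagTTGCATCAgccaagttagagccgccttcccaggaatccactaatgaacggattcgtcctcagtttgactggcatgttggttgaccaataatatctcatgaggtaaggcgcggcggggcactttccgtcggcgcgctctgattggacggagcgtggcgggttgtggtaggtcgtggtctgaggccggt

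The element begins 68 bases before the start site in ASNS and 187 bases before it in AARS1. It was found in 4 of 27 promoters of the list (14.8%), in 1.92% of those of all measured genes and in 3.14% of all promoters. The 4 genes did not share a response. The residual from the line was -1.78 in ASNS, -0.71 in AARS1, -1.83 in ATF3 and 0.03 in GADD45G. From the curve ASNS was at -1.80 and ATF3 at -0.42. At 0 and 10 min ASNS read -0.15 and -2.09, and ATF3 read 4.88 and 5.16. Among genes below the line 2 of 102 held it (1.96%), and among genes above the line 7 of 73 (9.59%).

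Lists of metabolic genes had negative median residuals that were smaller from the curve. Glycolysis had -0.71 over 15 genes, with LDHA alone below the line, and -0.40 from the curve. Nuclear genes of oxidative phosphorylation had -0.36 over 59 genes, 55 of them negative, with none below the line and NDUFS6 above it, and -0.21 from the curve. Over all genes, 4342 of 8876 had a negative residual. Cytosolic ribosomal proteins had -0.40 over 50 genes, with RPL23A below, and -0.23 from the curve. By rank matching these medians were -0.22, -0.14 and -0.19. The lists start where the line lies above most probes, as their 0 min medians were -0.36, -0.37 and -0.33. The actin cytoskeleton list had -0.42 over 23 genes, with ACTA2 and ACTB below. Common reference genes had -0.39 over 17 genes, 2 of them below, and these overlap the lists just given.

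Chaperones of the endoplasmic reticulum had a median residual of -0.38 over 22 genes, with 3 below the line, against 1.54% of all genes. From the curve the median was -0.22 with 1 gene below, CALR, and by rank matching it was -0.13. CALR, calreticulin, which folds glycoproteins and holds calcium, read -0.02, 0.62, -0.97, -1.25, -1.15 and -1.10 over the 6 arrays. PDIA4, a disulfide isomerase, was at -0.85 and -2.56, and SSR1, a subunit of the translocon-associated complex, at -0.72 and -2.22, and both were within 1 of the curve. DDOST, a subunit of the oligosaccharyltransferase, had an outermost probe at 0.46 and -1.38, but only 1 of its 9 probes was below the line. Among cytosolic and mitochondrial chaperones, HSPA8 and HSP90AB1 were below the line, of which HSPA8 was at -0.80 from the curve, and HSPH1 and DNAJC7 were above. The median was -0.05.

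A few probes that had been strongly positive at 0 min were lower at 10 min. COL4A1, a basement membrane collagen, read 0.12, 1.62, 0.30, -1.27, -1.70 and -1.95 over the 6 arrays. SELENON, a selenoprotein of the endoplasmic reticulum, read 1.91, 0.56, -0.57, -1.13 and -1.56 from 0 min to 8 h. One probe of COL6A1, a type VI collagen chain, read 2.62, 1.07, -0.43, -1.26 and -0.87. These passed from the positive to the negative side between 10 and 30 min. The 3 probes of COL6A1 share an accession but disagree, with residuals from -2.64 to 0.86, so its course holds for 1 spot.

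Of 745 single-gene probes at 1 or more at 0 min, 737 entered a further count. Of these 737, 6 were outside the self-self range on the negative side at both 30 min and 8 h. The set of 6 was chosen after its values were seen. Besides the 3 above it held FKBP8, an immunophilin of mitochondria, RPS6KA4, a nuclear kinase of the stress pathways, and SCAP, the escort protein of sterol sensing. At 0 and 10 min FKBP8 was at 1.08 and 0.12. RPS6KA4 was at 1.22 and 0.95, and SCAP at 1.03 and 0.36. All 6 were lower at 10 min than at 0 min and lower again at 30 min, and 5 were below the line.

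Other probes dropped from a positive value to near 0 or past it. DUSP22, a dual-specificity phosphatase, read -0.13 on the self-self array, 1.33 at 0 min, -0.36 at 10 min and 0.56 at 30 min, so it was positive again at 30 min. CCR7, a chemokine receptor, read 1.39, 0.03 and 1.28 at 0, 10 and 30 min, which is the same pattern. SDC3, a syndecan, went from 1.23 to 0.08 and was at 0.32 at 30 min and -1.03 at 8 h. AURKA, a mitotic kinase, went from 1.10 to 0.01 on one of 2 probes and to 2.76 at 8 h. SMPDL3B, a phosphodiesterase at the membrane, was at 2.19, 1.11 and 2.06 at 0, 10 and 30 min. In DUSP22, CCR7 and SMPDL3B the 10 min value stood apart from both neighbours in time.

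TSPAN13, a tetraspanin, was already negative and moved far down, reading -0.11, -1.35, -4.05, -3.76, -2.82 and -3.46 over the 6 arrays. Its residual was -2.01. PODXL, a sialomucin, read -2.00 and -3.07 with a residual of -0.09, and so followed the line. TLCD3A and XKR8 followed it too, at -1.64 and -2.68 and at -1.63 and -2.57. AGGF1, an angiogenic factor, stayed at -1.86 and -1.87 and had a residual of 0.93.

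Above the line, most named probes peaked on the 10 min array, though not IL1RN, HAS2, SNAI1 and PIP5K1A. That array chose the probes, so such a peak follows in part from the choice and is no separate result. NUDCD3, a cochaperone-like protein, read -0.08, -0.55, 4.42, -0.92, 1.84 and -0.88 over the 6 arrays, a residual of 5.30 on 1 probe. ABCC11, a transporter, read 0.27, 2.42 and 1.19 at 0, 10 and 30 min. CNR2, a cannabinoid receptor, read -0.05, 1.74 and 0.37. CNNM4, a magnesium transporter, read 0.40, 2.33 and 1.09, and CAPN9, a calpain, 0.19, 1.91 and 0.69. In each the 10 min value was the highest of the 6 arrays.

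Among the named genes above the line with 2 probes, the second did not follow. HOXB3, a homeobox factor, read 1.00 and 3.63 on one probe, and its residuals over 2 probes were 2.26 and 0.00. SKIC3, a subunit of the cytosolic exosome's SKI complex, read 0.75 and 3.22 on one probe, and its residuals were 2.23 and -0.25. KRT23, a keratin, read 0.16 and 1.51, with residuals of 1.38 and 0.38. GRM3, a glutamate receptor with 1 probe, read 0.37, 1.75 and 1.42 at 0, 10 and 30 min. The other probes of HOXB3 and SKIC3 stayed within 0.5 of the line. PCDH9, a protocadherin outside the named set and chosen after its values were seen, had both probes above the line, at -1.36 and -0.51 and at -0.62 and 0.35, with residuals of 1.55 and 1.34.

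Some probes above the line had been negative at 0 min and were nearer to 0, or positive, at 10 min. SNAI1, a repressor of epithelial genes, had the lowest 0 min value of a named gene, -2.22, and read -1.70, -0.42, 0.35 and 1.13 at the later harvests. IL1RN, the antagonist of the interleukin 1 receptor, read -1.77 and -0.79 and stayed negative. HAS2, a hyaluronan synthase, read -0.94, 0.21, -0.25, 0.40 and 0.77 from 0 min to 8 h. DCTD, deoxycytidylate deaminase, was at -0.33, 1.23 and -0.84 at 0, 10 and 30 min. SNAI1 thus moved in one direction over all 5 harvests, and DCTD was on the positive side at 10 min alone.

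PIP5K1A, a lipid kinase, read 0.50, 2.24, 1.94, 0.82 and 3.14 from 0 min to 8 h. PTGS2, the inducible cyclooxygenase, read 0.79, 2.35, 1.37, 0.37 and -1.06. CDT1, a replication licensing factor, read -0.52, 0.42, 0.09, -0.13 and 0.95. MYC, in the list of other short-lived growth regulators, was within the line's threshold at 10 min and read 0.34, 1.23, 3.39, 1.15 and 4.15. SNAI1 was the one gene above the line among the 44 measured genes of that list, whose median residual was 0.05.

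Immediate-early and NF-kB genes held many of the highest 0 min values, and where the line and the curve part their residuals differ. EGR4 read 0.07, 5.94, 6.74, 6.44, 1.19 and 5.80 over the 6 arrays. Its residual was -1.78 from the line but 0.05 from the curve. TNFAIP3, an NF-kB feedback inhibitor, averaged 5.53 and 6.26 over 2 probes, with residuals of -1.67 and 0.00 from the line and the curve. NR4A3, a nuclear receptor, was at 4.63 and 5.54, and FOS at 3.55 and 5.09, with residuals of 0.04 from the line and 0.92 from the curve. JUN went from 3.84 to 4.36.

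In the AP-1, EGR, NR4A and KLF list, 6 of 25 genes were below the line and none from the curve, and the median residual changed sign from -0.22 to 0.10 between the 2 fits. The NF-kB list had 6 of 18 below the line and none below the curve, with medians of -0.30 and -0.18. Replication-dependent histones, whose mRNAs end in a stem-loop, had 4 of 17 below the line and none below the curve, and their median went from -0.48 to -0.05. Over all 8876 genes, 137 (1.54%) were below the line and 89 below the curve. H4C8, a histone H4 gene, averaged 4.75 and 5.39 over 2 probes. The histone and AP-1 medians thus depend on whether a line or a curve is taken at high 0 min values. The list of cytokines and chemokines with unstable mRNA had 26 measured genes and medians of -0.03 and 0.23. Its members off the line were PTGS2, an enzyme, above it, and ICAM1, an adhesion molecule, below it. ICAM1 was within 1 of the curve.

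Targets of nonsense-mediated decay, a pathway that needs translation, had a median residual of 0.01 over 29 genes, equal to that over all genes. The 3 below the line were ATF3, DDIT3 and MAP3K14, all above 3 at 0 min, and none of them was below the curve. The lists of RNA polymerases and general transcription factors, spliceosome, proteasome, mitosis, p53 targets and interferon-stimulated genes had no gene off the line, with medians between -0.11 and 0.13. Sterol and fatty acid synthesis had FASN and SCAP below among 23 genes, at a median of -0.22. Translation factors had EIF5 below, DNA replication had RRM2 below and CDT1 above, and the BCL2 family had HRK above. Of these, EIF5, RRM2 and HRK were within 1 of the curve, at -0.88, -0.98 and 0.86.

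The other harvests were fitted on the 0 min array in the same way, and share it, so the values are given side by side only. From 10 min to 8 h the slopes were 1.45, 1.28, 0.66 and 1.29. The robust SD relative to 0 min was 2.08, 1.78, 1.20 and 1.95 times. At least 1 above the line were 181, 291, 81 and 1131 probes, and at least 1 below it 297, 358, 304 and 770. The slope was thus steepest at 10 min, and most probes off the line were counted at 8 h.

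General features were compared with no test. Median gene length was 41802 bases above the line and 23381 below it, against 31209 over all measured genes with a length in the RefSeq table. The median GC content of the 250 bases before the start was 60% above, 66% below and 64.4% over all measured genes. A TATAAA at 40 to 20 bases before the start site was in 8 of 102 promoters below the line (7.84%) and in 4 of 73 above it (5.48%). It was in 6 of 25 of the matrix list (24%) and in 3.16% of those of measured genes. The promoters of COL1A1, COL3A1 and COL6A1 are not in the table used here.

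Position in the deposited table moved with the count of probes above the line. Among probes numbered up to 4800 there were 2.51% above the line, against 0.735% of the rest, while the shares below were 2.09% and 2.24%. In runs of 200 probe numbers the median was 2 probes above, the highest was 17, and 4 of 71 runs held 56 of the 181. A stretch of 33 measured probes, numbered 3353 to 3391 and picked after its values were seen, held 8 above the line and 1 below it, with those of CNNM4, SKIC3, ABCC11, HOXB3, DUSP22 and CDT1 among them. Of the 181 probes above the line 43.1% had another within 5 probe numbers, and of the 297 below it 41.4%. The sets differ in size and the share expected from size was not computed, so these shares cannot be compared. Some repeated probes of ACTB, TUBA1A, HSP90AB1 and GAPDH below the line carry adjacent numbers, such as 9227, 9228, 9229 and 9230. Where a probe number sits on the slide is not given in the sources used here. The part of table position in the values of these genes was not tested.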

How the data were processed

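Two-colour arrays, 1 per harvest, measured mRNA of the GM00156 line. The deposited table holds 1 log2 ratio per probe and array. Per the labels' protocols, the authors averaged spot intensities, subtracted background, took the ratio of sample to reference and normalised it within each slide. The log base was read from the values, as 2 to the power of a value was a whole multiple of 1 in 10000 for 99.5% to 100% of the values. Samples were grouped by their titles.

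The most repeated value of each array (333 to 534 probes) was dropped, which left out 514 probes. The line was fitted by least squares over probes, with a lowess curve beside it, using numpy 2.4.6, pandas 2.3.3 and statsmodels 0.14.6, and the steps were tested on simulated data. Gene lists use the mean of a gene's probes. Named are the 12 single-gene probes farthest on each side of both fits (measured on all 6 arrays and inside the self-self range there), the 6 highest and 6 lowest at 0 min, the 6 largest differences of each class, the leading genes of the lists, and genes said to be chosen after their values were seen. Further list members, such as FOS, GADD45B, ATF4, TUBB, TUBA1B and TUBB2B, were named outside this rule. Members and lists were chosen with earlier results of these data known. Of 14080 probes, 11304 have 1 symbol, 446 several and 2330 none, and 11282 matched the RefSeq gene table. Alternatives covered the repeated value, scaling, centring, the fit (a Huber line from MASS in R 4.3.3, total least squares, separate lines, lowess and rank matching), the threshold, gene averaging and table order. No test was made, since each group is 1 array.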

Additional observations from a re-analysis of the deposited data

How the results depend on the processing

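The count of probes above the line, 181, was 273 with the repeated value kept, 75 genes with probes averaged per gene and 11 at a threshold of 2, and 131 to 220 otherwise. The count below it, 297, was 143 per gene, a count of genes, and 32 at a threshold of 2, and 220 to 410 otherwise. Differences of at least 1, 222, became 621 with the repeated value kept and 127 per gene. Differences of at most -1, 518, became 262 per gene and 854 with the 0 min array scaled to the spread at 10 min. That scaling sets the ratio of robust SDs to 1. The slope of 1.45 was 1.75 by total least squares, 1.79 and 1.18 as separate lines for negative and positive 0 min values, and 1.40 to 1.51 otherwise. Lowess and rank matching give no slope. The median residual of the AP-1, EGR, NR4A and KLF list was 0.10 from lowess, and that of B lymphocyte markers was -0.14 with the repeated value kept. Signs of residuals turned for EGR4 (0.052) and MCF2 (0.065) from lowess, for NR4A3 from lowess and by rank matching (0.23 and 0.22) and for H4C8 by rank matching (0.11). By rank matching EGR4 and MCF2 were at 0, which a probe of equal rank on both arrays has by construction. The cause was not tested. Chosen after seeing the data, subtracting the median of each run of 200 probe numbers gave 131 above and 296 below, and leaving out accessions with 7 or more probes gave 154 and 256. With 1 array per time, no array can be left out. No paired analysis was possible because each group is 1 array.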
